A study of Mus musculus with 3 samples.

Results

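Genes of the vessel wall were followed in LepR reporter cells of the mouse superior cervical ganglion, which holds sympathetic neurons, glia, fibroblasts and vessels. The set holds 38 of the 52550 genes in the deposited table. They were picked by name for their known use as markers of blood endothelium, mural cells (pericytes and smooth muscle) and lymphatic endothelium, and all 38 names were found once each. All 38 are annotated as protein coding.

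The study has 1 group of 3 biological replicates, so no second condition was compared. All mice were male and 10 weeks old and carried the genotype LepRCRE::Ai32, in which Cre recombinase made from the leptin receptor gene switches on Ai32, a channelrhodopsin fused to yellow fluorescent protein. Live fluorescent cells were sorted by flow cytometry, and their RNA was copied at full length and amplified by PCR (Smart-Seq2). The reporter marks cells in which Cre was active at any time, including in a precursor. The sources used here do not give the number of cells or animals behind a library. The p-values below therefore measure the spread between these 3 libraries.

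A vessel is a tube of endothelial cells wrapped by mural cells. Endothelial cells hold together through adhesion proteins such as the product of Pecam1, answer to angiopoietins through the receptor kinase Tek, and owe their identity to ETS and SoxF transcription factors. Pericytes sit on capillaries, while smooth muscle cells around larger vessels carry contractile proteins. Lymphatic endothelium is specified by Prox1. In peripheral nerve, capillaries of the endoneurium form the blood-nerve barrier together with the perineurium.

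Levels are given in TPM, a unit that corrects reads for gene length and for the total of the library. Totals of 8236904, 8037861 and 7721800 reads were recovered for replicates 1, 2 and 3, so that 1 read equals from 0.391 to 0.418 TPM where the exons of a gene add up to 1 kb. Lepr itself had 363, 32.1 and 54.0 TPM in replicates 1, 2 and 3. Of 16 perineurial markers, which the series title names as the sorted cell type, 4 lay above 1 TPM and 2 below (Msln and Mpzl2) in limma's test against that level. The claudin gene Cldn1 was the highest at 227 ± 15.9 TPM (SD, n = 3), and the keratin gene Krt19 had no read. Of the 15 with a read 26.7% thus lay above, near the 24.0% of all protein-coding genes tested. The 14 markers of satellite glia and Schwann cells took from 3.09% to 3.63% of TPM, the 12 fibroblast markers from 0.471% to 0.675%, and the 38 vessel wall genes from 0.140% to 0.227%.

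The vessel wall genes spanned the range from no read at all to a mean of 422 TPM. Of the 38, 25 had a read in every library, 7 in 2 libraries, 3 in 1 library and 3 in none. By mean level, 5 stood above 100 TPM (Ly6c1, Ly6a, Pdpn, Emcn and Rgs5), 14 between 10 and 100 TPM, 7 between 1 and 10 TPM and 9 below 1 TPM, beside the 3 without a read. A level of at least 1 TPM was reached in all 3 libraries by 18 of the 38, against 23.6% of the 27529 genes of the table with at least 1 read in any library. The 2 sets are unlike: all 38 are protein coding and 3 have no read, while 17237 of the 27529 are protein coding. In RNA from a pool of cells, fewer cells of a type and less RNA per cell cannot be told apart.

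Each of those 27529 genes was set against a level of 1 TPM by limma's moderated test on log2(TPM + 1), two-sided, with Benjamini-Hochberg adjustment over all of them and a threshold of 0.05. Of the 38 genes, 12 lay above 1 TPM, 2 lay below, 21 passed in neither direction, and 3 had no read and were not tested. Over all genes tested, 16.4% lay above and 19.0% below. Over the 17237 protein-coding genes among them, 24.0% lay above and 20.2% below. The 12 were Ly6c1, Ly6a, Pdpn, Emcn, Rgs5, Mcam, Acta2, Tek, Vcam1, Angpt2, Fli1 and Mmrn2. Without replicate 1, limma called 0 of the 38 and 0 of all genes above 1 TPM, while 14 and 4642 had an unadjusted p under 0.05. Without replicate 2 it also called 0 and 0, with 8 and 4445 at an unadjusted p under 0.05, and without replicate 3 it called 6 of the 38 and 2453 of all genes. The median of the mean log2(TPM + 1) was 2.79 over the 35 vessel wall genes with a read and 0.88 over all genes tested, protein coding or not.

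**Figure D1:**
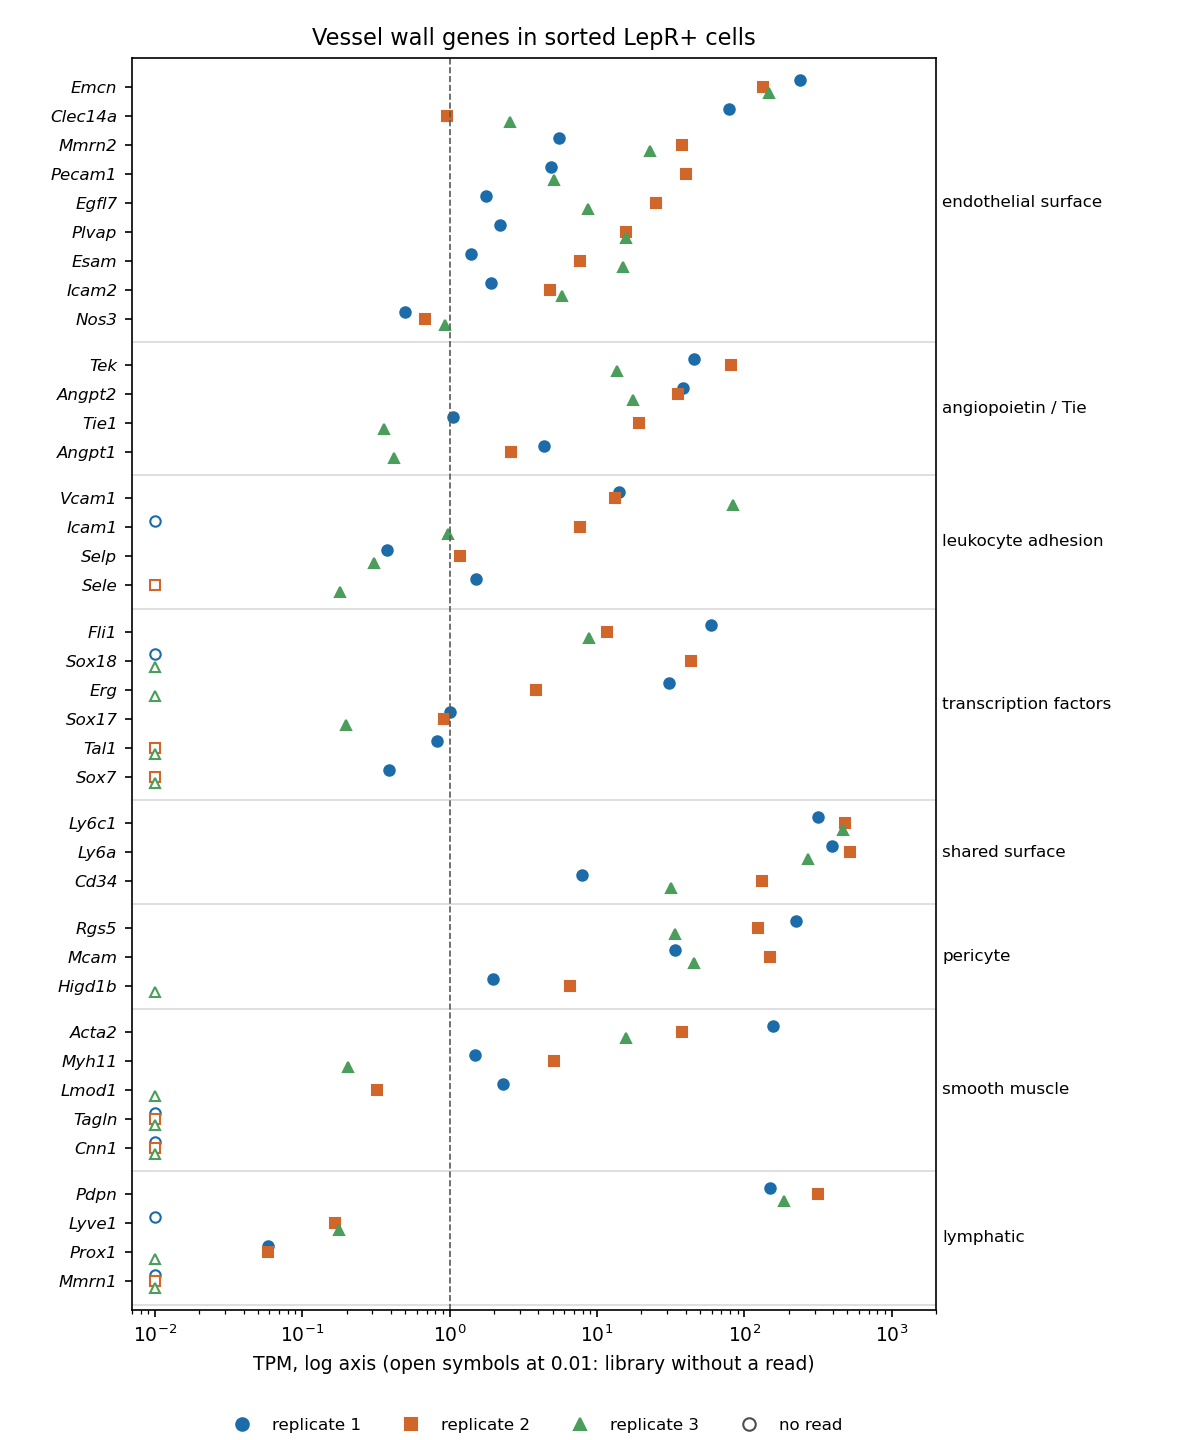
TPM of each of the 38 vessel wall genes (rows, grouped by role) in replicates 1, 2 and 3 on a log axis; the dashed line marks 1 TPM and open symbols at the left edge mark libraries without a read. Emcn, Ly6c1, Ly6a and Pdpn lie above 100 TPM in every library, whereas Tagln, Cnn1 and Mmrn1 have no read in any.

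Among the surface, matrix and junction genes of endothelium, Emcn was the highest. Emcn encodes endomucin, a sialomucin of capillary and venous endothelium, and lies on chromosome 3 (137341067 to 137432185 of GRCm38, forward strand). It had 237, 135 and 146 TPM in replicates 1, 2 and 3, a mean of 173 ± 56.2 TPM (SD, n = 3). Its highest library was 1.76 times its lowest, and it passed the test (6.39 over the level on the log2 scale, SE 0.249, limma adjusted p = 0.00402). None of its 50-base stretches occurs in transcripts of another gene in GENCODE M21.

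Pecam1, which encodes the junctional adhesion molecule CD31 of endothelium, stood well under Emcn, at 4.92, 40.2 and 5.12 TPM. Replicate 2 was high and replicates 1 and 3 were alike, and the mean did not pass the test (2.51 on the log2 scale, SE 0.755, adjusted p = 0.0869). Within libraries Emcn exceeded Pecam1 by 3.88 ± 1.91 on the log2(TPM + 1) scale (SD, n = 3), in 3 of 3 libraries. That pair, like the other 7 pairs compared, gave p = 0.25 in the exact two-sided sign-flip permutation test over libraries, which is the smallest p that 3 libraries allow (0.25 also after adjustment over 8 pairs).

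Clec14a and Mmrn2 encode an endothelial lectin and the matrix protein multimerin 2, which binds it. Clec14a had 78.8, 0.962 and 2.58 TPM, from 920, 11 and 28 reads, so replicate 1 held nearly all of them, and it did not pass the test (limma, adjusted p = 0.310). Mmrn2 had 5.50, 37.7 and 23.1 TPM, with replicate 1 the lowest, and lay above 1 TPM with a mean of 22.1 ± 16.1 TPM (SD, n = 3; limma, adjusted p = 0.0449), though not with a level of 0.5 TPM (adjusted p = 0.0609) or without mitochondrially encoded genes (adjusted p = 0.064). The ligand and its receptor thus had their highest values in different libraries.

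The remaining genes of this group were low to moderate, and limma called 0 of these 5 (Egfl7, Plvap, Esam, Icam2 and Nos3) at adjusted p-values between 0.0675 and 0.343, Plvap and Icam2 having an unadjusted p under 0.05. Egfl7, a secreted factor of endothelium, had 1.78, 25.3 and 8.66 TPM. Plvap, the diaphragm protein of fenestrated capillaries, had 2.22, 15.8 and 15.8 TPM, and Esam, an adhesion molecule of endothelial tight junctions, had 1.40, 7.67 and 15.05 TPM. All 3 genes were lowest in replicate 1, as was Icam2, an adhesion molecule that resting endothelium carries, at 1.90, 4.77 and 5.76 TPM. Nos3, the endothelial nitric oxide synthase, had 0.497, 0.686 and 0.935 TPM from 5, 7 and 9 reads. Of its exons 32.3% overlap genes on the opposite strand, Atg9b among them, and without a stated strand setting reads there cannot be told apart.

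The 9 genes of this group summed to 334, 268 and 223 TPM in replicates 1, 2 and 3, of which Emcn made up the largest part in every library. In the same libraries the 16 perineurial markers summed to 537, 817 and 647 TPM and the 14 macrophage markers to 4.21, 173 and 104 TPM. Whether cells other than endothelium added to the levels of the endothelial genes was not tested.

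The angiopoietin system was read at both ends, receptor and ligand. Tek, the receptor kinase also called TIE2 (chromosome 4, 94739289 to 94874976, forward strand), had 45.5, 80.9 and 13.6 TPM, a mean of 46.6 ± 33.7 TPM (SD, n = 3). Replicate 2 was the highest and replicate 3 the lowest, and the mean lay above 1 TPM (4.25 on the log2 scale, SE 0.604, limma adjusted p = 0.0407). Tie1, the related receptor that modulates Tek and binds no angiopoietin by itself with high affinity, had 1.05, 19.3 and 0.361 TPM. Its level thus came almost wholly from replicate 2, and it did not pass the test (adjusted p = 0.503). Tek exceeded Tie1 by 3.31 ± 1.25 on the log2(TPM + 1) scale (SD, n = 3), in 3 of 3 libraries.

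Of the ligands, Angpt2, the angiopoietin that endothelium itself releases and that can oppose Tek activation, was the higher. It had 38.5, 35.7 and 17.5 TPM, a mean of 30.6 ± 11.4 TPM (SD, n = 3), and lay above 1 TPM (3.90 on the log2 scale, SE 0.315, limma adjusted p = 0.0119). Angpt1, the activating ligand made by mural and mesenchymal cells, had 4.35, 2.59 and 0.417 TPM from 47, 28 and 4 reads and did not pass the test (adjusted p = 0.400). Angpt1 minus Angpt2 was -3.31 ± 0.410 on the log2(TPM + 1) scale (SD, n = 3), and all 3 libraries had the lower value for Angpt1. Of the exons of Angpt1, 14.2% overlap an antisense gene, Gm17473, which had no read.

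The start regions of Tek and Tie1 are shown because both are genes that ETS factors are known to regulate in endothelium, and the ETS genes Fli1 and Erg were themselves among the genes measured. Each window runs from 250 bases before to 50 after the RefSeq start (GRCm38.p6), 5′ to 3′ on the gene's strand. Capitals mark the ETS core GGAA on either strand. No marked cores overlap. Such a core occurs in 95.98% of the 32851 RefSeq windows of this length, so its presence alone sets neither gene apart. Tek (chr4:94739039-94739338, forward strand) holds 2 matches and Tie1 (chr4:118489800-118490099, reverse strand) holds 9, where the mean over all windows is 3.52. RefSeq windows were matched for 20 of the 38 genes.
Tek: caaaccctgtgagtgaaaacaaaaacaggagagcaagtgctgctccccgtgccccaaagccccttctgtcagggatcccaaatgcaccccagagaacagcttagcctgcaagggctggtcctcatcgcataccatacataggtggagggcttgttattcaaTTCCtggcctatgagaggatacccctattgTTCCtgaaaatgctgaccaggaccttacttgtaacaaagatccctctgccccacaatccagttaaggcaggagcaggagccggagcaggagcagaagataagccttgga
Tie1: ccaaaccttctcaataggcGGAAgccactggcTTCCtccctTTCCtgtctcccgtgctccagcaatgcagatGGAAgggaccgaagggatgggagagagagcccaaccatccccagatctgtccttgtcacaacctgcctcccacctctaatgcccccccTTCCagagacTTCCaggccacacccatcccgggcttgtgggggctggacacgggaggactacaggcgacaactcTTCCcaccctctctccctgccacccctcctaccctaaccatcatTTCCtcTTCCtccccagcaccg

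**Figure D2:**
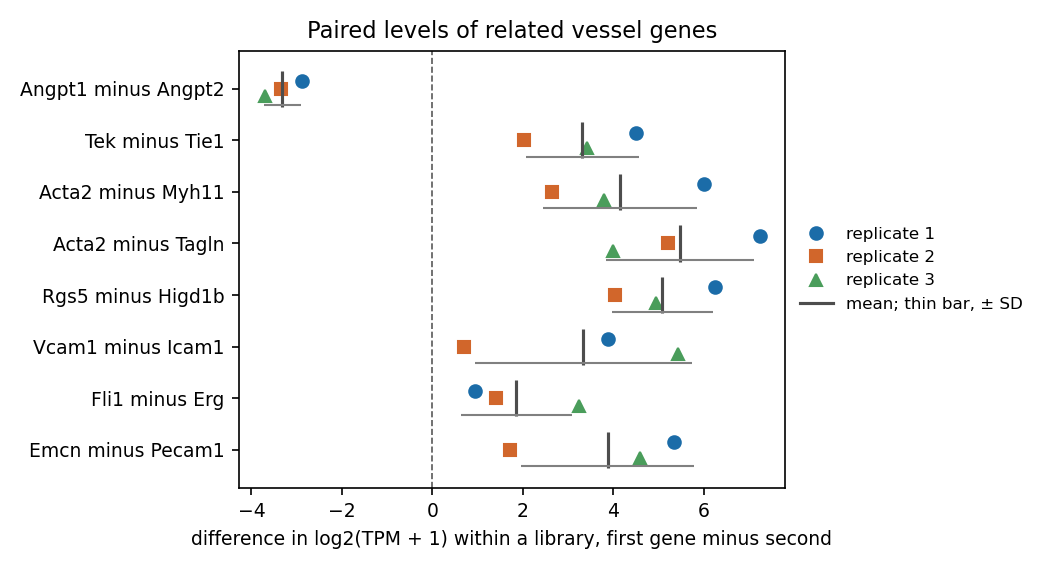
Difference in log2(TPM + 1) within each library for 8 pairs of related vessel genes, first gene minus second; symbols are libraries, the vertical tick is the mean and the thin bar is ± SD. All 3 libraries lie on the same side of 0 for each of the 8 pairs; Tagln enters with the added 0.25 read alone.

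The transcription factors of endothelium were uneven. Fli1, an ETS factor of endothelium and blood cells, had 59.8, 11.8 and 8.78 TPM, a mean of 26.8 ± 28.6 TPM (SD, n = 3), with replicate 1 the highest. It was the 1 gene of 6 in this group to lie above 1 TPM (limma, adjusted p = 0.0464), a call that was lost with a level of 0.5 TPM (adjusted p = 0.0655) and without mitochondrially encoded genes (adjusted p = 0.0656). Erg, its close relative and the more endothelial of the pair in adult tissue, had 30.7 and 3.86 TPM in replicates 1 and 2 and no read in replicate 3. Fli1 exceeded Erg by 1.86 ± 1.22 on the log2(TPM + 1) scale (SD, n = 3), in 3 of 3 libraries.

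The SoxF factors, which act redundantly in vessel growth, were each seen in a different way. Sox18 had 179 reads in replicate 2, worth 43.2 TPM, and none in the others, where 3 reads would be 0.785 and 0.838 TPM in replicates 1 and 3. Sox17, a factor of arterial endothelium, had 12, 11 and 2 reads, or 1.00, 0.921 and 0.197 TPM, and 16.8% of its exons overlap the opposite-strand gene Gm37587, which had 33, 0 and 0 reads. Sox7 had 3 reads in replicate 1, worth 0.386 TPM, and none elsewhere. Tal1, a factor of blood and endothelial precursors, likewise had reads in replicate 1 alone, 9 in number and worth 0.827 TPM. Replicate 3 thus had no read for 4 of the 6 factors (Erg, Tal1, Sox7 and Sox18). Levels given for 3 reads are the limit that a count of 0 allows, for counting error only.

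Of the adhesion genes that let leukocytes bind to a vessel, Vcam1 was the highest. Vcam1, which binds integrin alpha-4 on leukocytes and is also made by stromal cells, had 14.0, 13.3 and 83.9 TPM, a mean of 37.1 ± 40.6 TPM (SD, n = 3), with replicate 3 standing above the other two. It lay above 1 TPM (limma, adjusted p = 0.0429), but not with a level of 0.5 TPM (adjusted p = 0.0545) or without mitochondrially encoded genes (adjusted p = 0.0553). Icam1, an adhesion molecule that inflammatory signals raise, had no read in replicate 1, 86 reads (7.73 TPM) in replicate 2 and 10 reads (0.982 TPM) in replicate 3 (adjusted p = 0.707). Vcam1 exceeded Icam1 by 3.34 ± 2.40 on the log2(TPM + 1) scale (SD, n = 3), in 3 of 3 libraries.

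The selectins were near the limit of detection. Selp, the P-selectin of platelets and endothelial storage granules, had 4, 13 and 3 reads, or 0.377, 1.17 and 0.308 TPM. Sele, the E-selectin that endothelium makes on activation, had 11, 0 and 1 reads, the first worth 1.51 TPM and the last 0.179 TPM. Neither passed the test (adjusted p = 0.330 for Selp and 0.372 for Sele). Exons of Selp and Icam1 overlap opposite-strand genes of GENCODE M21 over 14.1% and 11.7% of their bases. The gene that overlaps Icam1, Gm47079, was not found by name among the genes of the authors' table. The start region of Sele is shown because cytokine induction of this gene is known to act through NF-kappaB sites close to its start. The window (chr1:164047984-164048283, forward strand, GRCm38.p6) holds 1 match, on either strand, to GGGA followed by any 4 bases and CC, in capitals, from -145 to -136 relative to the start. A match is found in 20.73% of all RefSeq windows of this length.
Sele: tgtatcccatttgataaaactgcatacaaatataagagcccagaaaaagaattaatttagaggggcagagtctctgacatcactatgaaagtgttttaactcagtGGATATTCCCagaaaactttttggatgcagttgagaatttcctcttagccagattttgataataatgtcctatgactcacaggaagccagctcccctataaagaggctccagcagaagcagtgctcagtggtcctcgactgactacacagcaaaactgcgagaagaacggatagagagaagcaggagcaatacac

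Among surface genes that endothelium shares with fibroblasts and progenitor cells, Ly6c1 and Ly6a had the highest means of all 38 genes. Ly6c1 (chromosome 15, 75044018 to 75048830, reverse strand) had 318, 481 and 466 TPM, a mean of 422 ± 90.2 TPM (SD, n = 3; limma, adjusted p = 0.00359). Ly6a, which encodes the stem cell antigen Sca-1 (chromosome 15, 74994877 to 74998031, reverse strand), had 391, 523 and 269 TPM, a mean of 395 ± 127 TPM (adjusted p = 0.00365). Both kept a narrow range, with the highest library 1.51 and 1.95 times the lowest. Replicate 1 was the lowest for Ly6c1 and replicate 3 for Ly6a. Of the 50-base stretches of Ly6c1, 32.8% also occur in transcripts of other genes and 21.5% in its neighbour Ly6c2, which had no read in any library. For Ly6a the share was 19.0%, so the split of reads within this family is uncertain.

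Cd34, a sialomucin of capillary endothelium, fibroblasts and blood progenitors, had 7.96, 133 and 31.8 TPM. Replicate 2 was 16.7 times replicate 1, and the mean of 57.5 ± 66.3 TPM (SD, n = 3) missed the threshold (4.09 on the log2 scale, SE 0.913, limma adjusted p = 0.0520). It passed with a pseudocount of 0.25 TPM (adjusted p = 0.0386), with genes under a mean of 0.5 TPM left out (adjusted p = 0.0196) and with a mean-variance trend (adjusted p = 1.98e-05). In the same libraries the 12 fibroblast markers summed to 4711, 6357 and 6746 TPM. Their part in the levels of Ly6a, Ly6c1 and Cd34 was not tested.

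Among pericyte genes, Rgs5 and Mcam lay above 1 TPM. Rgs5, a regulator of G-protein signalling and a common pericyte marker (chromosome 1, 169655501 to 169695813, forward strand), had 225, 124 and 33.8 TPM, a mean of 128 ± 95.8 TPM (SD, n = 3; limma, adjusted p = 0.0257). Mcam, the adhesion molecule CD146 of endothelium and mural cells, had 33.8, 150.1 and 45.3 TPM, a mean of 76.4 ± 64.1 TPM (adjusted p = 0.0221). The highest library was replicate 1 for Rgs5 and replicate 2 for Mcam. Higd1b, used as a pericyte marker, had 4, 14 and 0 reads, or 1.96 and 6.57 TPM in replicates 1 and 2 (adjusted p = 0.551). Rgs5 exceeded Higd1b by 5.08 ± 1.11 on the log2(TPM + 1) scale (SD, n = 3), in 3 of 3 libraries.

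The contractile genes of smooth muscle did not come together. Acta2, the smooth muscle actin, which myofibroblasts and some pericytes also make (chromosome 19, 34241090 to 34255590, reverse strand), had 158, 37.6 and 15.8 TPM. Replicate 1 was 10.0 times replicate 3, and the mean of 70.4 ± 76.5 TPM (SD, n = 3) lay above 1 TPM (4.55 on the log2 scale, SE 0.771, limma adjusted p = 0.0428). Myh11, the smooth muscle myosin heavy chain and the most restricted marker of the set, had 25, 87 and 3 reads, or 1.49, 5.14 and 0.205 TPM, and did not pass (adjusted p = 0.609). Lmod1, an actin-nucleating protein of smooth muscle, had 23, 3 and 0 reads, or 2.30 and 0.322 TPM in replicates 1 and 2 (adjusted p = 0.642). Acta2 exceeded Myh11 by 4.15 ± 1.70 on the log2(TPM + 1) scale (SD, n = 3), in 3 of 3 libraries.

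Tagln and Cnn1, which encode the actin-binding proteins transgelin and calponin 1, had no read in any library. For Tagln, 3 reads would be 0.640, 0.639 and 0.683 TPM in replicates 1, 2 and 3, and Acta2 was at least 247-fold, 58.8-fold and 23.1-fold higher than that floor of 3 reads per library. For Cnn1, 3 reads would be 0.465, 0.464 and 0.496 TPM, and Acta2 was at least 340-fold, 80.9-fold and 31.8-fold higher. Of the exon bases of Tagln in GENCODE M21, 67.9% overlap 2 genes on the opposite strand, Pcsk7 and Gm48529. Reads there may not have been counted for Tagln. Gm48529 was not found by name among the genes of the authors' table, so how much of this overlap applied to their counts is unknown. Pcsk7 had 62.4, 39.4 and 0.422 TPM in the 3 libraries. No exon of Cnn1 overlaps another gene and none of its 50-base stretches is shared, so the absence of its reads does not have that limit.

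The start regions of Acta2 and Cnn1 are shown because contractile genes are known to share control by serum response factor through CArG boxes, and these 2 genes stood at opposite ends of the group. Capitals mark matches to a CArG box, which is its own reverse complement, with at most 1 base off. Acta2 (chr19:34255324-34255623, reverse strand, GRCm38.p6) holds 2 matches, from -84 to -75 and from -34 to -25 relative to the RefSeq start. Cnn1 (chr9:22099003-22099302, forward strand, GRCm38.p6) holds 0 in this window. A match with at most 1 base off is found in 21.11% of all RefSeq windows of this length. Whether these matches bear on the levels of the 2 genes was not tested.
Acta2: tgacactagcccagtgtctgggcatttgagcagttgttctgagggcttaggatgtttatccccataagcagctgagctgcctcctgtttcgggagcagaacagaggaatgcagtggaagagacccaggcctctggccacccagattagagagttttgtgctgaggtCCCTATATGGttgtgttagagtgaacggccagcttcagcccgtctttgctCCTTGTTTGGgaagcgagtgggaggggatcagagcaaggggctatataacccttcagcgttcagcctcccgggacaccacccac
Cnn1: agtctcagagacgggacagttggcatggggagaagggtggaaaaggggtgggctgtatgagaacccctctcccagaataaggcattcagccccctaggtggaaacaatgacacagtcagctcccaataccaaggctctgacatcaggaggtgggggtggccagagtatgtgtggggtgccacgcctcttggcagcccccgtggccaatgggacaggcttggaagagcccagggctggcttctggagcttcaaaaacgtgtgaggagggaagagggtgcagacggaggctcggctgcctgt

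Lymphatic genes split into 1 high gene and 3 at or near the limit of detection. Pdpn, which encodes podoplanin, a sialoglycoprotein of lymphatic endothelium that fibroblasts and mesothelium also make (chromosome 4, 143267431 to 143299564, reverse strand), had 149, 318 and 185 TPM. Its mean of 217 ± 88.8 TPM (SD, n = 3) lay above 1 TPM (limma, adjusted p = 0.00448). Prox1, the factor that specifies lymphatic identity, had 1, 1 and 0 reads, and Lyve1, a hyaluronan receptor of lymphatic capillaries and some macrophages, had 0, 1 and 1 reads. Those 2 were the members called below 1 TPM (limma, adjusted p = 0.0428 for each), calls that were lost with a level of 0.5 TPM, without mitochondrially encoded genes and, as both means are lower, with genes under 0.5 TPM left out. Mmrn1, multimerin 1 of lymphatic endothelium and platelets, was without reads, and for it 3 reads equal 0.217, 0.216 and 0.231 TPM. Prox1, Lyve1 and Mmrn1 were thus at or near 0 reads in libraries in which Pdpn was high.

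**Figure D3:**
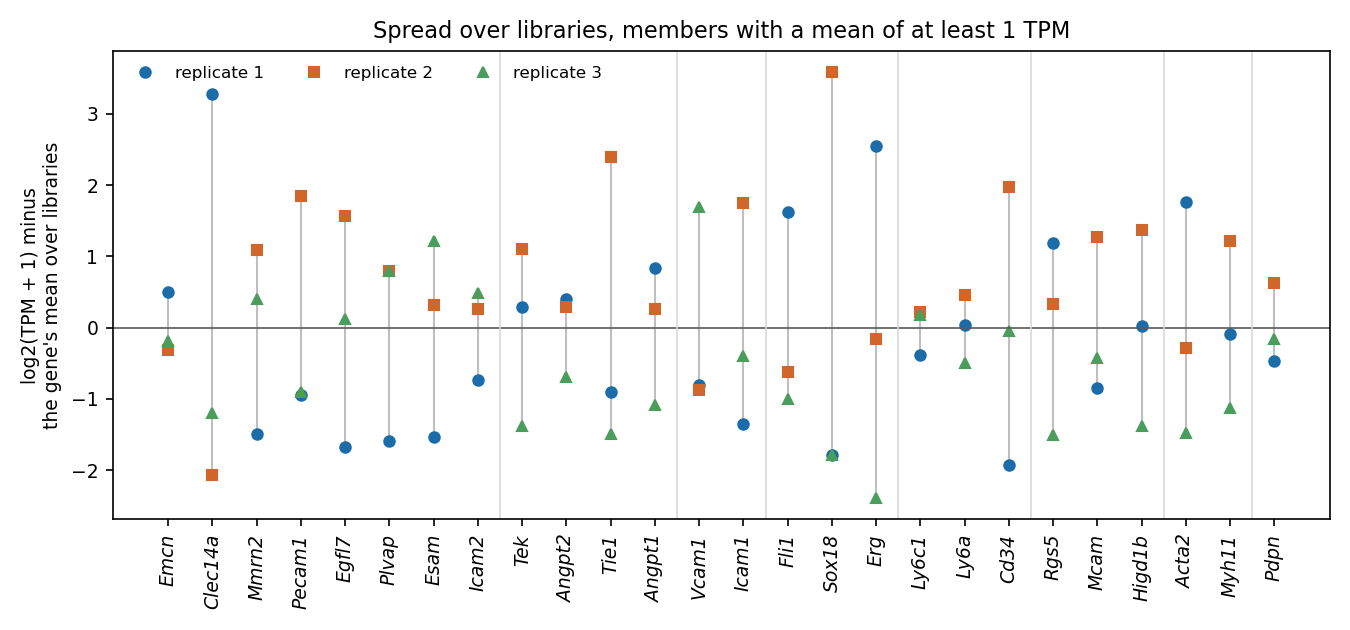
Deviation of each library from the gene's mean log2(TPM + 1) for the 26 vessel wall genes whose mean reached 1 TPM, ordered by role. Ly6c1 has the smallest spread of the 26 (SD 0.332) and Sox18 the largest (SD 3.11).

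The vessel wall genes differed in which library was highest, as genes of the whole table did. Of the 26 vessel wall genes whose mean reached 1 TPM, 8 were highest in replicate 1, 14 in replicate 2 and 4 in replicate 3, while over the 14063 genes of the table with such a mean the shares were 33.7%, 36.7% and 29.7%. Pecam1, Tie1, Egfl7, Tek, Sox18, Mmrn2, Icam1 and Cd34 were among those highest in replicate 2, whereas Emcn, Clec14a, Erg, Fli1, Angpt1 and Angpt2 were highest in replicate 1. Endothelial genes did not, therefore, all peak in the same library, and nor did the genes of the whole table. The median SD of log2(TPM + 1) over libraries was 1.38 for the 26 genes and 1.42 for the 14063. A value of at least 10 TPM in 1 library with under 1 TPM in another was seen for 4 of the 26 (Clec14a, Sox18, Erg and Tie1), against 30.3% of the 14063.

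Among the 26, the narrowest spreads belonged to Ly6c1, Emcn, Ly6a, Pdpn, Angpt2 and Icam2, each with an SD of log2(TPM + 1) between 0.332 and 0.649. The first 4 of these are also the 4 with the highest lowest library. The widest belonged to Sox18, Clec14a, Erg and Tie1, from 3.11 for Sox18 to 2.10 for Tie1. Between these, Rgs5, Acta2 and Tek, all past the test, had SDs of 1.38, 1.64 and 1.27.

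Further genes of the vessel wall, taken from lists of known markers, gave mixed results. Of those with a read, 40% of other endothelial, 23.1% of arterial, venous and capillary and 45.5% of barrier genes lay above 1 TPM in limma. For other mural and other lymphatic genes the shares were 16.7% and 14.3%, beside 24.0% of all protein-coding genes tested. Of 20 other endothelial genes, 8 lay above 1 TPM, 0 lay below in limma (1 at an unadjusted p under 0.05), and 16 reached 1 TPM in all 3 libraries. The highest were Ecscr, an endothelial chemotaxis receptor, at 147 ± 33.2 TPM (SD, n = 3), Adgrl4 at 83.4 ± 42.6 and Ramp2, a partner of the adrenomedullin receptor, at 59.5 ± 2.89. The VE-cadherin gene Cdh5, the defining junction gene of endothelium, had 1.23, 31.6 and 38.4 TPM, lowest in replicate 1 as Egfl7, Plvap, Esam and Icam2 were. Of 15 genes that mark arterial, venous or capillary endothelium, 3 lay above and 0 below (3 below at an unadjusted p under 0.05), and the arterial connexin genes Gja4 and Gja5 had no read. Rgcc, a cell cycle regulator that other cells also make, led them at 1892 ± 572 TPM, followed by the venous factor Nr2f2 at 137 ± 47.6 and the venous chemokine receptor Ackr1 at 62.7 ± 48.5.

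Of 12 genes of barrier endothelium, 5 lay above 1 TPM and 1 below (Slco1c1), and Foxq1 had no read. Itm2a, at 1140.5 ± 496 TPM (SD, n = 3), Abcg2 at 165 ± 68.5 and Slco1a4 at 83.1 ± 29.9 were the highest, and Abcg2 and Slco1a4 encode transporters of the barrier. Among the 5 that passed in neither direction were Cldn5 (3.94, 32.4 and 3.03 TPM), Slc2a1 (1.59, 34.0 and 0.507 TPM) and Ocln (54.1, 0.116 and 0.421 TPM). Cldn5 is also counted among the 20 other endothelial genes, and Slc2a1 and Ocln among the 16 perineurial markers. Of 18 other mural genes, 3 lay above and 3 below. Myl9, a myosin light chain of smooth muscle and many other cells, had 326 ± 63.6 TPM. Abcc9, a subunit of the pericyte potassium channel, had 22.2 ± 7.93 TPM, and Pdgfrb, the receptor of mural cells and fibroblasts, had 21.4 ± 14.4 TPM. Kcnj8, the other subunit gene of that channel, had 0, 0 and 2 reads (mean 0.149 TPM) and was 1 of 12 in this list that passed in neither direction. The intermediate filament gene Des, with 0, 1 and 1 reads, and Myocd, the coactivator of contractile genes, with 0, 3 and 2 reads, lay below, as did Tbx18. Vtn, a pericyte gene, had 78.9, 291 and 2.11 TPM. Of 8 other lymphatic genes, 1 lay above (Reln, at 32.2 ± 20.9 TPM) and 2 below (Stab2 and Tbx1). Nrp2, the highest of them, had 5.59, 48.0 and 56.6 TPM and did not pass (limma, adjusted p = 0.0506), and the chemokine gene Ccl21a had no read. The other 3 were each read mainly in 1 library: Flt4, the receptor VEGFR3 of lymphatic endothelium, had 0, 2 and 255 reads, Foxc2, a factor of lymphatic valves, had 0, 93 and 0 reads, and Itga9, an integrin of lymphatic valves, had 1, 192 and 3 reads.

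**Figure D4:**
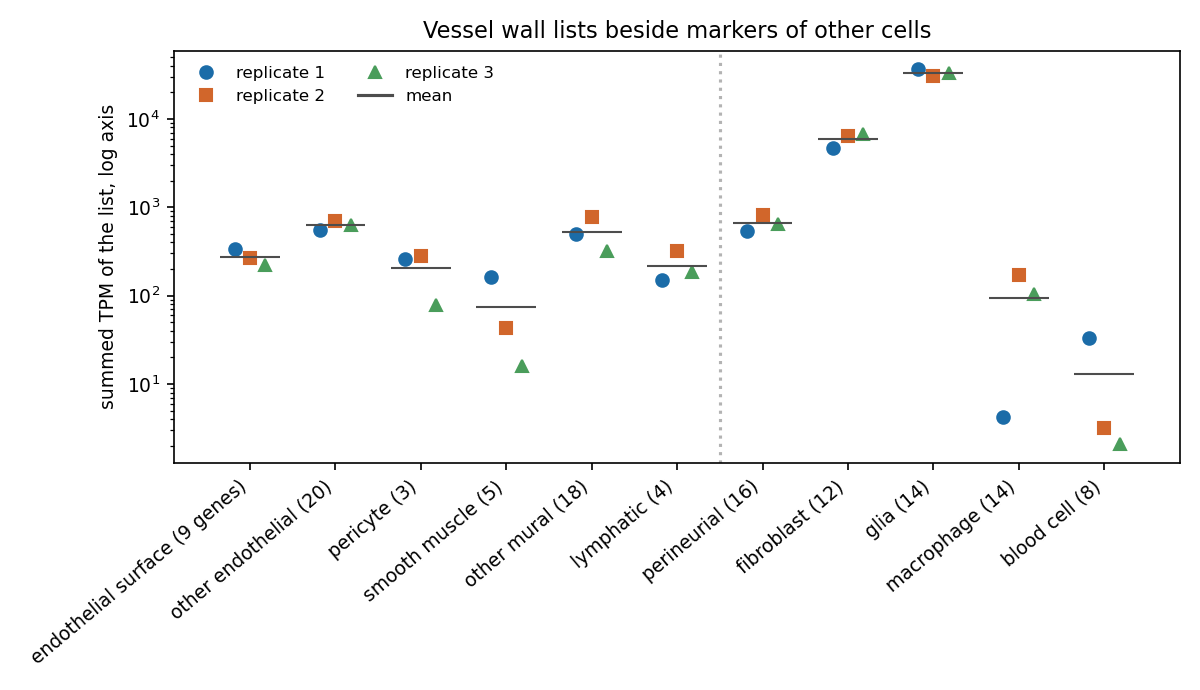
Summed TPM of 6 vessel wall lists (left of the dotted line) and 5 marker lists of other cells in replicates 1, 2 and 3, on a log axis; horizontal bars are means over the 3 libraries. The smooth muscle list is highest in replicate 1 at 162 TPM and lowest in replicate 3 at 16.1 TPM, and the glial list lies above all others in every library.

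Blood cells and neurons of the ganglion were measured through their own markers in the same libraries. Of 8 erythroid and platelet genes, 4 had no read, among them Pf4 and Ppbp of platelets, and the list summed to 33.4, 3.15 and 2.09 TPM, of which Alas2 alone gave 32.6 TPM in replicate 1. Itga2b, an integrin gene of platelets, had 0, 28 and 0 reads. Among 14 macrophage genes, 0 lay above 1 TPM in limma (0 also at an unadjusted p under 0.05), Adgre1 and Cd163 lay below, Aif1 had no read, and the highest, Tyrobp, had 0, 33 and 120 reads. Among sympathetic neuron genes, Th had 0, 1 and 4 reads and Npy had none.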

How the data were processed

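The table the authors deposited gives, for 52550 genes and 3 libraries, TPM (reads corrected for gene length and scaled so that each library sums to 1000000) on a log2 scale. STAR and featureCounts with the build mm10 (GRCm38) were used, per the submitters' processing notes. The sources used here do not give versions, annotation release, strand setting or filters. Values were returned to TPM. They showed 0.25 read added per gene, so whole reads were recovered with exon lengths of GENCODE M21 (GRCm38). Of all genes, 49035 came out whole within 0.02 of a read with the length of the same gene ID, 756 with that of another ID version, and 2758 more within 0.001 with a length solved from the values. Of the 38 vessel wall genes, 33, 1 and 4 were of these 3 kinds. Without a read, a library's value is the added 0.25 read, so reads are printed instead. Tests, means and SDs were made from the deposited values, the added 0.25 read included.

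Genes with at least 1 recovered read in any library (27529) were tested with limma 3.58.1 in R 4.3.3 (prior degrees of freedom 1.12) on log2(TPM + 1), a scale that understates differences of low genes. The script was tested on simulated data. Differences between 2 genes were tested by exact sign-flip permutation over libraries, with Benjamini-Hochberg adjustment over 8 pairs. Python 3.11.15, numpy 2.4.6, pandas 2.3.3 and matplotlib 3.10.9 did the rest. Shared sequence was counted as 50-base stretches of GENCODE M21 transcripts, both strands. No molecular identifiers mark PCR copies, so floors of 3 reads cover counting error only. Every one of the 38 genes is described, and of the other lists the 1 to 4 genes with the highest mean and defining markers without reads are named, where a list is described. Cdh5, Flt4, Foxc2, Itga9, Itga2b, Abcc9, Kcnj8, Pdgfrb, Cldn5, Slc2a1, Ocln, Th, Lepr, genes overlapping a vessel wall gene and the genes below 1 TPM were added after their values were seen. The 38 genes and all lists were chosen with earlier results of these data known. Alternatives tried were another pseudocount, level, filter, variance trend or scaling, and each replicate left out.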

Additional observations from a re-analysis of the deposited data

How the results depend on the processing

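Counts above 1 TPM moved by less than 1.5 times under another pseudocount, level, filter, variance model or scaling (from 9 to 13 of the 38 vessel wall genes, 12 as reported). Leaving out 1 replicate gave from 0 to 6 of the 38 above and from 0 to 1 below, and from 0 to 2453 of all genes above and from 0 to 5089 below. With 2 libraries limma has 1 residual degree of freedom a gene, which its construction makes a weaker test. Counts below 1 TPM depended on the setting. With a level of 0.5 TPM, with a mean of at least 0.5 TPM required or without mitochondrially encoded genes, 0 of all genes and 0 of the 38 lay below in limma (at an unadjusted p under 0.05, 1564, 0 and 6648 of all genes and 1, 0 and 3 of the 38). With a level of 2 TPM these were 11112 and 6, with no filter 29850 and 6, and with a mean-variance trend 9856 and 4. By construction, a required mean of 0.5 TPM takes the lowest genes out of the test. A level of 0.5 TPM also leaves less room below it than a level of 1 TPM. Beyond this, the cause was not tested. None of the 14 vessel wall genes past the threshold turned direction. Of those short of it, at a level of 0.5 TPM Selp, Sox17, Nos3 and Lmod1 had mean differences of 0.0711, 0.15, 0.18 and 0.14 on the log2 scale, and at 2 TPM Icam1, Myh11 and Higd1b had -0.20, -0.18 and -0.0329. With 1 replicate left out, Tie1 ranged from -0.26 to 1.69, Icam1 from -0.49 to 1.06, Sox18 from -0.91 to 1.78, Myh11 from -0.21 to 0.97, Higd1b from -0.13 to 1.24 and Lmod1 from -0.78 to 0.0635. Each of the 8 pairs had the same sign in all 3 libraries. Its mean therefore had to keep that sign with a pseudocount of 0.25 TPM and without each replicate, so these settings could not test it. No paired analysis was possible because the study has 1 group.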
